A study of Mus musculus with 4 samples.

Results

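The genes described here are the translation initiation and elongation factors of lung group 2 innate lymphoid cells (ILC2s), chosen by name alone: gene names that start with Eif1 to Eif6 or with Eef1 or Eef2. Of 85 names of that form among 55401 gene models, 4 Eif2ak kinase genes and 13 pseudogenes were left out, which gave 68 members. Among them, Eif2c5 is annotated as a long noncoding RNA and matched by its name only. In 3 members (Eif2c5, Eif4ebp3 and Eif4e1b) the value was listed at 0 in every library.

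ILC2s were purified from C57BL/6 mouse lungs and stimulated for 6 h, at 500 cells per sample, with the alarmin IL-33 plus angiotensin II (Ang II), the peptide hormone of the renin-angiotensin system, or with IL-33 alone. Each group holds 2 RNA-seq libraries, made from amplified cDNA, and every library, controls included, received IL-33. The labels give neither the age nor the sex of the mice, nor whether samples came from separate animals or cultures, so p-values measure only the spread between these samples. Below, "Ang II libraries" are those with IL-33 plus Ang II, and levels are FPKM, fragments normalised by transcript length and library size.

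Initiation factors bring the first tRNA, the mRNA and the ribosomal subunits together. eIF2 carries the initiator tRNA and eIF2B recharges it with GTP, eIF1 and eIF1A guard the choice of start codon, eIF3 organises the small subunit, and the eIF4 proteins bind the mRNA cap and unwind the leader. eIF4E-binding proteins hold back the cap-binding protein until mTORC1 phosphorylates them. During elongation eEF1A delivers charged tRNAs and eEF2 moves the ribosome along the mRNA. Activated lymphocytes are known to increase protein synthesis through these steps.

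The libraries were first set against each other. Over genes whose FPKM multiplied by transcript length in kilobases lay at 1 to 32, the 2 Ang II libraries differed by 11 times the counting noise and the 2 IL-33 libraries by 0.86 times that noise. The noise rests on a depth estimated from how often low genes had a listed 0 in a single IL-33 library, since the files give no counts and the true depth is unknown. As that depth comes from the same IL-33 pair, a ratio near 1 for this pair is partly built in. Both pairs were set against the same depth, so the contrast between them does not depend on it. Differing by less than this sampling noise, the IL-33 libraries were counted as 1 sample. The tests thus set Ang II, n = 2, against IL-33, n = 1. Over the members that were tested, the median absolute difference in log2(FPKM + 1) was 0.541 between the Ang II libraries. Between the IL-33 libraries it was 0.0324. Over all genes tested these medians were 1.22 and 0.0509. Spearman's rho over these 57 members was 0.778 within the Ang II pair and 0.997 within the IL-33 pair.

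The labelled cell type was checked against marker genes. ILC2 markers summed to 1265 and 1660 FPKM with Ang II and to 1072 and 1077 FPKM with IL-33. Of 13 ILC2 marker genes, 11 were tested, with 4 having both Ang II values above IL-33 and 1 having both below, where 24.4% and 33.5% of all genes tested did so. Il1rl1, which encodes the IL-33 receptor, overlapped (43.5 and 78.7 FPKM with Ang II, 58.5 and 58.4 FPKM with IL-33). The largest differences among those tested were in Areg and Il13. Areg was higher (217 and 344 FPKM with Ang II, 7.38 and 7.51 FPKM with IL-33). Il13 was the marker lower in both (16.3 and 0.53 FPKM, against 70.05 and 73.7 FPKM). Il5 was listed at 0 in every library, and Thy1 stood below 0.1 FPKM in each. Haemoglobin and other red blood cell markers summed to 3831 and 1591 FPKM with Ang II and to 25146 and 24943 FPKM with IL-33, with 5 of 5 lower in both Ang II libraries. T cell markers summed to 184 and 24.5 FPKM with Ang II and to 241 and 245 FPKM with IL-33, with 5 of the 6 tested lower in both Ang II libraries, and Cd4 listed at 0 there. Cd8a and Cd8b1 stood below 0.1 FPKM in every library. Of the epithelial markers, all 4 tested of 6 were lower in both Ang II libraries (sums of 80.1 and 189 FPKM, against 366 and 356 FPKM with IL-33), with Krt8 and Sftpb listed at 0 throughout. Neutrophil markers summed to 61.9 and 38.6 FPKM with Ang II, against 208 and 201 FPKM, and all 3 tested of 4 were lower. Macrophage markers summed to 2034 and 916 FPKM with Ang II and to 2086 and 2051 FPKM with IL-33, 1 of the 5 tested being higher and 3 lower, with Itgax listed at 0. Of the 4 B cell markers 1 was tested, Cd79b, whose groups overlapped (sums of 51.2 and 1.88 FPKM, against 17.3 and 14.54 FPKM). The macrophage and red blood cell sums each exceeded the ILC2 sum in every library but Ang II library 2. The part of all these other cell types in the results below was not tested.

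The members together summed to 4245 and 3611 FPKM in the Ang II libraries and to 3747 and 3776 FPKM in the IL-33 libraries. That is 0.996% and 0.915% of all FPKM with Ang II, against 0.869% and 0.876% with IL-33. Eif5a, Eef1a1 and Eif1 were the most abundant members and made up 42.4% and 43.8% of the sum with Ang II and 36.5% and 35.3% with IL-33. The levels of single members spanned from 0 to 794 FPKM. Besides the 3 listed at 0 throughout, 8 members did not reach the mean of 1 FPKM needed for a test (Eef1a2, Eef2k, Eef1aknmt, Eef1akmt3, Eif3j2, Eif4a3l1, Eif4a3l2 and Eif5a2), and none of these exceeded 1.24 FPKM in any library.

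**Figure D1:**
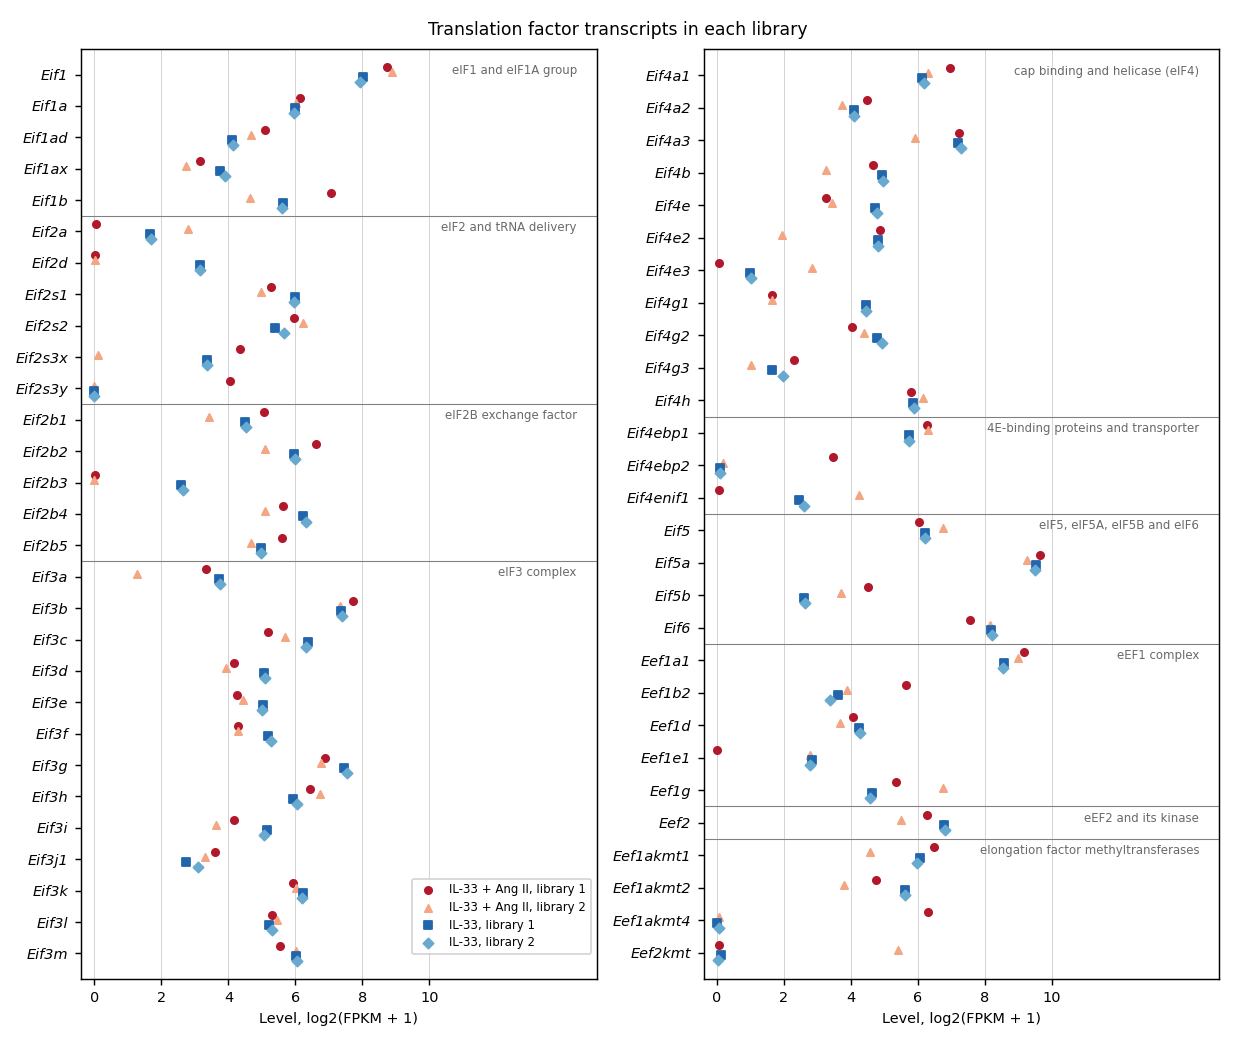
Levels of the 57 tested members as log2(FPKM + 1), by functional group, with 1 symbol per library. The 2 IL-33 symbols of a gene nearly coincide, while the 2 Ang II symbols often lie apart, as for Eef2kmt and Eef1akmt4.

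By its title, the series asks how Ang II acts on ILC2 responses, which the 2 groups address. A mean of at least 1 FPKM was reached by 57 members, of which 14 (24.6%) had both Ang II values above both IL-33 values and 21 (36.8%) had both below, while 22 overlapped. Of all 9215 genes tested, 24.4% were higher in both and 33.5% lower in both, so the members' shares lay near the background. The median log2 fold change of the members was -0.24, against -0.004 over all genes tested, and it was -0.03 in Ang II library 1 and -0.30 in Ang II library 2. Without Ang II library 2 the members higher with Ang II numbered 27 and the lower ones 27. Without Ang II library 1 these numbers were 19 and 33. With a single Ang II library, any value outside the near-identical IL-33 pair counts, so these numbers rise by construction. The shares over all genes were not computed at these settings, so the numbers show nothing particular to the members. At an adjusted p of 0.05 by limma, 0 members and 0 of all genes passed (0.0%), and 0.174 was the smallest adjusted p. With no adjustment, at p under 0.05, 0 members were higher and 2 lower, Eif2b3 and Eif2d, where the background was 2.79% of all genes higher and 10.8% lower. Both genes stood at or below 0.01 FPKM in both Ang II libraries and passed the filter through their IL-33 values alone. With Ang II values at the floor, the spread within that pair is small by construction, so these p-values lend no support to a difference. In bulk samples such as these, fewer cells of a type and less RNA per cell cannot be told apart.

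**Figure D2:**
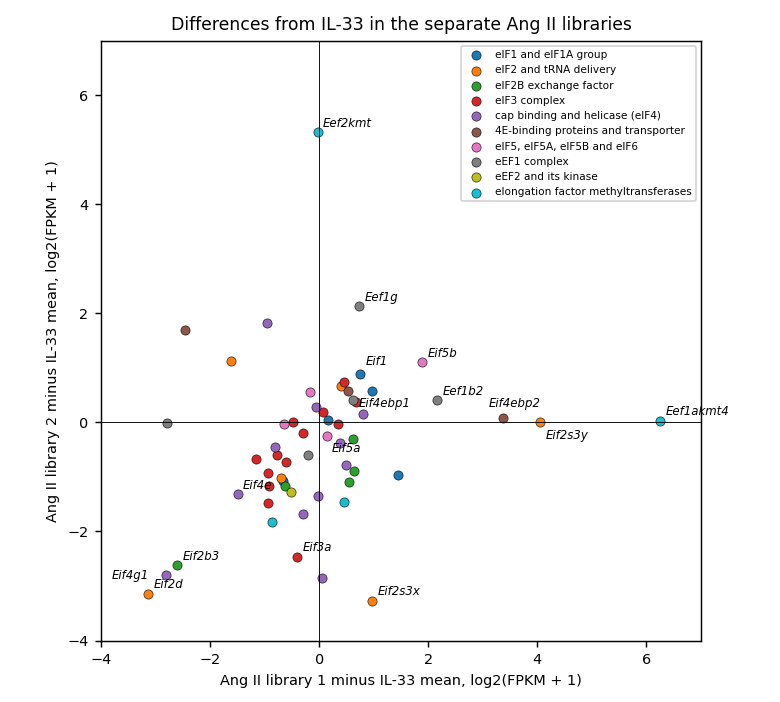
Difference of each tested member from the IL-33 mean in log2(FPKM + 1), in Ang II library 1 (horizontal axis) and Ang II library 2 (vertical axis). Eif2d, Eif4g1 and Eif2b3 lie far below 0 in both libraries, while Eef1akmt4 and Eef2kmt each stand out in 1 library only.

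Among the factors that guard start codon choice, Eif1 was higher with Ang II. The gene, which encodes the factor that keeps the scanning ribosome from starting at a poor codon, had 425 and 468 FPKM with Ang II and 261 and 243 FPKM with IL-33. Both Ang II values lay above both IL-33 values, and the log2 fold change was 0.82 (SE 0.18, limma adjusted p = 0.375). Eif1 lies on chromosome 11 of mm10 (100319885 to 100322096, plus strand). Of its 50-base stretches, 31.6% also occur in other annotated gene models. Eif1b, its paralog, stood at 133 and 24.3 FPKM with Ang II and at 48.2 and 47.8 FPKM with IL-33. The Ang II libraries therefore lay on either side of IL-33, and the share of Eif1b in the pair's FPKM was 23.8% and 4.93% with Ang II and 15.6% and 16.4% with IL-33.

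eIF1A works beside eIF1 and is encoded by a gene pair. Eif1a stood at 69.1 and 64.1 FPKM with Ang II and at 62.2 and 61.6 FPKM with IL-33, with a log2 fold change of 0.10. The X-linked Eif1ax stood at 7.92 and 5.69 FPKM with Ang II and at 12.5 and 13.8 FPKM with IL-33 (log2 fold change -0.88, SE 0.62). The groups did not overlap for either gene, and Eif1ax was 10.3% and 8.16% of the pair's FPKM with Ang II, against 16.8% and 18.3% with IL-33. Eif1ad, which is related to eIF1A by sequence, stood at 32.9 and 24.7 FPKM with Ang II and at 16.1 and 16.5 FPKM with IL-33. The summed level of the 5 genes of this group was 667 and 587 FPKM with Ang II and 400 and 383 FPKM with IL-33.

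The 3 subunits of eIF2, which carries the initiator tRNA, differed in direction. Eif2s1, which encodes the alpha subunit that stress kinases phosphorylate, stood at 38.0 and 30.1 FPKM with Ang II and at 62.6 and 61.6 FPKM with IL-33 (log2 fold change -0.86, SE 0.37, limma adjusted p = 0.676). Eif2s2, the gene of the beta subunit, was higher in both Ang II libraries, at 60.9 and 73.5 FPKM against 41.4 and 49.98 FPKM.

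The gamma subunit, which binds the tRNA and GTP, has an X-linked and a Y-linked gene in mice. Eif2s3x stood at 19.2 and 0.07 FPKM with Ang II and at 9.29 and 9.31 FPKM with IL-33. Eif2s3y stood at 15.7 FPKM in Ang II library 1 and was listed at 0 in the other 3 libraries. Ang II library 1 was thus alone among the 4 in having a value above 0 for this Y-linked gene, and there it made up 44.9% of the pair's FPKM. Other Y-linked genes did not follow it. Ddx3y stood at 0.03 and 1.89 FPKM with Ang II and at 0 and 0.02 FPKM with IL-33, Uty stood below 0.1 FPKM, and Kdm5d was listed at 0 in all 4. Xist, transcribed from the inactive X chromosome of females, stood at 8.04 and 4.49 FPKM with Ang II and at 2.71 and 2.62 FPKM with IL-33. The coding sequences of the pair agree at 86.3% of 1416 bases. The stretch where they differ most is shown, since these bases tell reads of the pair apart, with the 14 differing bases in capitals (coding bases 603 to 662, GENCODE M21 transcripts, GRCm38; chrX:94202924-94203984, minus strand, and chrY:1014758-1016081, plus strand, each across an intron).
Eif2s3x: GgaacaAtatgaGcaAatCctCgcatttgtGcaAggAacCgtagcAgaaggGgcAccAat
Eif2s3y: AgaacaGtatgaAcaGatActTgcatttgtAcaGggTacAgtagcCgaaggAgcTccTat

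Eif2d and Eif2a encode factors that can deliver tRNA to the ribosome without eIF2. Eif2d stood at 0.01 FPKM in both Ang II libraries, against 7.91 and 7.89 FPKM with IL-33. Its log2 fold change was -3.14 (SE 0.28, unadjusted p = 0.0108, limma adjusted p = 0.174). The Ang II values are equal, so this p rests on how other genes spread. On chromosome 1 (131153181 to 131187658, plus strand), Eif2d shares exon bases with Rassf5 on the opposite strand. Of the 50-base stretches of the Eif2d transcript that was read, 0.0585% occur elsewhere, all in the gene model Gm4806. Rassf5 stood at 19.1 and 11.2 FPKM with Ang II and at 64.2 and 64.6 FPKM with IL-33, and whether the authors' counting used strand is not given in the sources used here. Eif2a stood at 0.04 and 5.98 FPKM with Ang II and at 2.18 and 2.23 FPKM with IL-33, with the Ang II libraries on either side.

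eIF2B, the 5-subunit exchange factor that recharges eIF2, showed a split between the Ang II libraries. Eif2b1 stood at 32.3 and 9.69 FPKM with Ang II and at 21.5 and 22.0 FPKM with IL-33. Eif2b2 stood at 97.4 and 32.9 FPKM with Ang II and at 61.6 and 62.1 FPKM with IL-33. Eif2b5, the gene of the catalytic subunit, stood at 47.2 and 24.3 FPKM with Ang II and at 30.2 and 30.3 FPKM with IL-33. In each of these genes Ang II library 1 was above and Ang II library 2 below both IL-33 libraries. Eif2b4 was lower in both, at 48.7 and 33.2 FPKM against 73.3 and 78.8 FPKM. Eif2b3 stood at 0.01 and 0 FPKM with Ang II and at 4.99 and 5.26 FPKM with IL-33, with a log2 fold change of -2.61 (SE 0.22, unadjusted p = 0.00973, limma adjusted p = 0.174). The Ang II values of Eif2b3 lie at the floor, so this p, like that of Eif2d, rests largely on how other genes spread. Eif2b3 lies on chromosome 4 (117019402 to 117087306, plus strand). The summed level of the 5 genes was 226 FPKM in Ang II library 1 and 100.05 FPKM in Ang II library 2, against 192 and 198 FPKM with IL-33.

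eIF3, the largest initiation factor, binds the small ribosomal subunit through 13 kinds of subunit, of which all 13 had a tested gene. In both Ang II libraries 8 of them were lower (Eif3a, Eif3c, Eif3d, Eif3e, Eif3f, Eif3g, Eif3i and Eif3k) and 3 higher (Eif3h, Eif3j1 and Eif3l), while Eif3b and Eif3m overlapped. These are shares of 61.5% lower and 23.1% higher over 13 genes, beside 33.5% lower and 24.4% higher over all genes tested, and the difference in shares was not tested. The median log2 fold change was -0.67 over the 13 genes, -0.48 in Ang II library 1 and -0.60 in Ang II library 2, and the smallest limma adjusted p was 0.542. The summed level was 683 and 670 FPKM with Ang II and 801 and 827 FPKM with IL-33.

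The subunit genes differed in level among themselves although the complex holds each subunit once. The highest subunit gene exceeded the lowest by 23.1 and 115 times in the Ang II libraries and by 30.7 and 25.1 times in the IL-33 libraries, leaving out Eif3j2. At the top were Eif3b (209 and 161 FPKM with Ang II, 162 and 166 FPKM with IL-33) and Eif3g. Eif3g stood at 117 and 108 FPKM with Ang II and at 173 and 187 FPKM with IL-33 (log2 fold change -0.67, SE 0.22). Both encode parts of the module near the mRNA channel.

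Eif3f, a subunit of the structural core, stood at 18.5 and 18.7 FPKM with Ang II and at 34.9 and 37.7 FPKM with IL-33 (log2 fold change -0.93, SE 0.37). Eif3d, whose product can bind the cap of some mRNAs, stood at 17.0 and 14.2 FPKM with Ang II and at 32.8 and 33.3 FPKM with IL-33 (log2 fold change -1.04, SE 0.43). Eif3i stood at 17.0 and 11.4 FPKM with Ang II and at 34.4 and 32.3 FPKM with IL-33 (log2 fold change -1.20, SE 0.53). For these subunits the Ang II libraries lay close together and below IL-33. Eif3a, which encodes the scaffold of the complex, stood at 9.03 and 1.40 FPKM with Ang II and at 12.2 and 12.3 FPKM with IL-33. Here Ang II library 2 was far below the others (log2 fold change -1.43, SE 1.47). Eif3h was higher in both, at 86.3 and 105.8 FPKM with Ang II and 59.9 and 65.1 FPKM with IL-33. Eif3j1 and Eif3j2, the gene pair of the loosely bound j subunit, share 90.8% of the 50-base stretches of Eif3j2, so their values are uncertain. Eif3j2 was at or below 0.9 FPKM in every library. The remaining subunit genes Eif3c, Eif3e, Eif3k, Eif3l and Eif3m, which complete the core of the complex, stood between 18.1 and 64.3 FPKM with Ang II and between 31.0 and 81.5 FPKM with IL-33. Of these, Eif3c differed most, at 35.4 and 50.1 FPKM against 81.5 and 78.7 FPKM (a log2 fold change of -0.91).

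**Figure D3:**
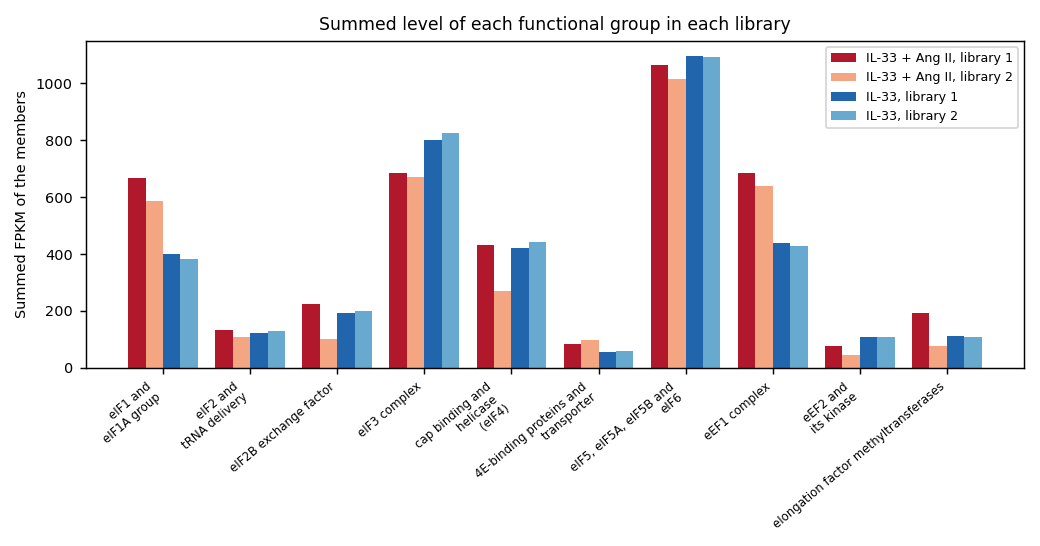
Summed FPKM of the members of each functional group, with 1 bar per library. The eIF1 and eEF1 groups are higher in both Ang II libraries (667 and 587, and 684 and 640 FPKM) than in both IL-33 libraries (400 and 383, and 439 and 429 FPKM), and the eIF3 sum is lower (683 and 670, against 801 and 827 FPKM).

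At the cap, the 3 genes shown of the eIF4F complex differed in direction. Eif4e, the gene of the cap-binding protein, stood at 8.54 and 9.80 FPKM with Ang II and at 25.5 and 26.2 FPKM with IL-33. The Ang II libraries agree closely and lie below IL-33 (log2 fold change -1.40, SE 0.48, limma adjusted p = 0.563). Eif4e lies on chromosome 3 (138526179 to 138559696, plus strand). Eif4g1, which encodes the scaffold that joins eIF4E to the helicase and to the poly(A) tail, stood at 2.10 and 2.12 FPKM with Ang II and at 20.6 and 20.97 FPKM with IL-33. Its log2 fold change was -2.81 (SE 0.65, unadjusted p = 0.0589, limma adjusted p = 0.400). Eif4a1, the gene of the RNA helicase, was higher in both Ang II libraries, with 123 and 77.9 FPKM against 68.3 and 71.4 FPKM and a log2 fold change of 0.48.

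Eif4a1 has a near-identical processed pseudogene, Eif4a-ps4, on chromosome 1, which differs from its coding sequence at 1 of 1218 bases. The pseudogene carried 97.5% and 97.2% of the FPKM of Eif4a1 in the Ang II libraries and 96.5% and 87.1% in the IL-33 libraries. Of the 50-base stretches of Eif4a1, 64.9% occur in Eif4a-ps4. Its FPKM values and those of Eif4a1 therefore may count the same fragments, and the level of Eif4a1 is uncertain. The 60 bases around the differing base (in capitals; coding bases 504 to 563, GENCODE M21 transcripts, GRCm38) are shown because they hold the whole difference. They lie at chr11:69668705-69669088, minus strand, across an intron, and at chr1:60704435-60704494, plus strand.
Eif4a1: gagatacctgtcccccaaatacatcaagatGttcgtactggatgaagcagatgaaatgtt
Eif4a-ps4: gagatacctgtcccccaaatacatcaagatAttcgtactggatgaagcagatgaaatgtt

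Within the scaffold family the share of Eif4g1 was 9.81% and 9.11% of the FPKM of Eif4g1, Eif4g2 and Eif4g3 with Ang II, against 42.2% and 39.2% with IL-33. Eif4g2 encodes a relative that lacks the eIF4E-binding part. It stood at 15.4 and 20.1 FPKM with Ang II and at 26.2 and 29.6 FPKM with IL-33, so the family's sum was also lower, at 21.4 and 23.3 FPKM against 48.9 and 53.4 FPKM. Eif4g3 overlapped, at 3.92 and 1.03 FPKM against 2.13 and 2.88 FPKM.

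In the cap-binding family the Ang II libraries disagreed with each other. Eif4e2, whose product represses cap-dependent initiation, stood at 28.2 and 2.86 FPKM with Ang II and at 27.2 and 26.9 FPKM with IL-33. Eif4e3 stood at 0.04 and 6.14 FPKM with Ang II and at 1.00 and 1.04 FPKM with IL-33. The share of Eif4e in the family was accordingly 23.2% and 52.1% with Ang II and 47.5% and 48.4% with IL-33, which overlaps.

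The helicase paralog Eif4a2 overlapped between groups, at 21.2 and 12.2 FPKM with Ang II and 15.9 and 16.1 FPKM with IL-33. Eif4a3, which belongs to the exon junction complex, stood at 149 and 58.6 FPKM with Ang II and at 147 and 156 FPKM with IL-33. The helicase cofactor gene Eif4b stood at 24.2 and 8.60 FPKM with Ang II and at 29.4 and 30.3 FPKM with IL-33, lower in both. Eif4h, another cofactor gene, overlapped (54.6 and 69.5 FPKM, against 56.8 and 57.7 FPKM). Its groups differed by a log2 fold change of 0.10.

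**Figure D4:**
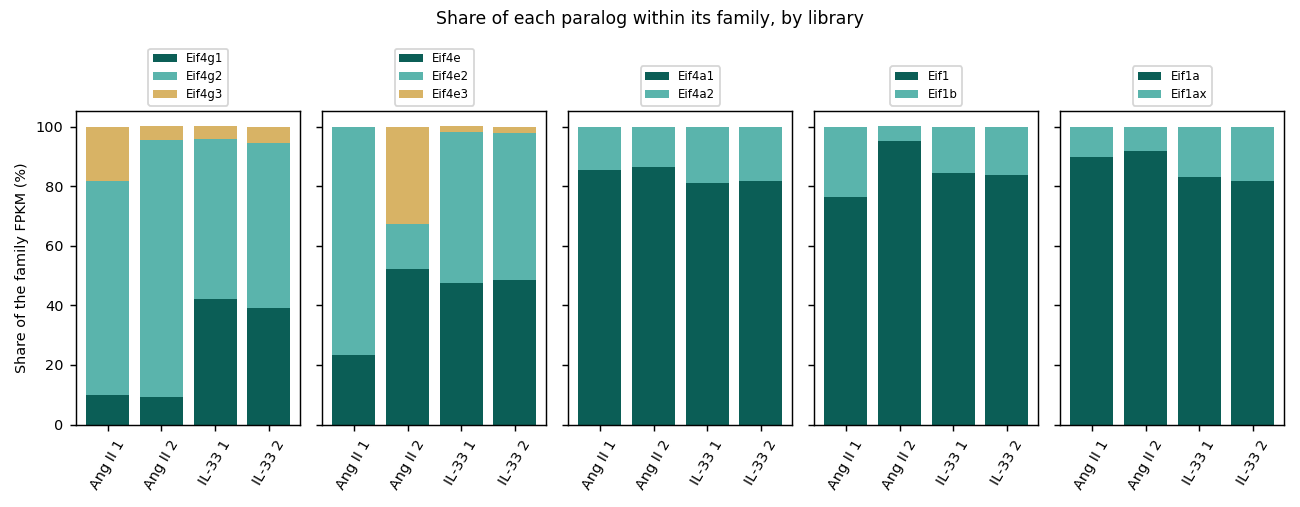
Share of each paralog in the summed FPKM of its family (percent), with 1 bar per library. Eif4g1 takes 9.81% and 9.11% in the Ang II libraries and 42.2% and 39.2% in the IL-33 libraries, while the Eif4e family differs mostly between the 2 Ang II libraries.

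The eIF4E-binding proteins compete with eIF4G for eIF4E. Eif4ebp1 stood at 75.5 and 78.5 FPKM with Ang II and at 51.7 and 52.5 FPKM with IL-33, higher in both (log2 fold change 0.55, SE 0.26, limma adjusted p = 0.709). The ratio of Eif4ebp1 to Eif4e, chosen after the values of both were seen, was 8.84 and 8.01 with Ang II and 2.03 and 2.00 with IL-33. Eif4ebp2 stood at 10.1 and 0.13 FPKM with Ang II and at 0.07 and 0.06 FPKM with IL-33, so its level above 1 FPKM was found in Ang II library 1 alone among these 4. Eif4enif1, which encodes the protein that carries eIF4E into the nucleus, stood at 0.04 and 17.7 FPKM with Ang II and at 4.44 and 5.05 FPKM with IL-33.

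Eif5a, whose product carries the amino acid hypusine and helps the ribosome past difficult stretches, was the most abundant member. It stood at 794 and 612 FPKM with Ang II and at 729 and 717 FPKM with IL-33, with the Ang II libraries on either side (log2 fold change -0.05, SE 0.27), and its sign turned to 0.02 when libraries were rescaled to equal sums. Eif5a2 was at or below 0.05 FPKM in every library. Eif6, whose product keeps the ribosomal subunits apart, stood at 185 and 285 FPKM with Ang II and at 288 and 296 FPKM with IL-33, lower in both but by little in Ang II library 2. Eif5, the gene of the GTPase activator of eIF2, overlapped (64.7 and 107.5 FPKM, against 72.4 and 72.6 FPKM).

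Eif5b, whose product joins the subunits, was higher in both Ang II libraries. It stood at 21.7 and 12.1 FPKM with Ang II and at 5.03 and 5.16 FPKM with IL-33 (log2 fold change 1.502, SE 0.71, limma adjusted p = 0.718). The gene lies on chromosome 1 (37998010 to 38055579, plus strand) and shares exon bases with Rev1 on the opposite strand, which was at or below 0.05 FPKM with Ang II and at 6.09 and 5.79 FPKM with IL-33.

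Among the elongation factors, Eef1a1, which encodes the carrier of charged tRNAs, was higher in both Ang II libraries. It stood at 579 and 503 FPKM with Ang II and at 380 and 372 FPKM with IL-33 (log2 fold change 0.52, SE 0.195, limma adjusted p = 0.601). The tissue-restricted paralog Eef1a2 stood below 0.1 FPKM throughout. Of the 50-base stretches of Eef1a1, 60.6% occur in other gene models, which could share its fragments.

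The exchange factor eEF1B, which recharges eEF1A, is encoded by Eef1b2, Eef1g and Eef1d. Eef1b2 stood at 49.4 and 13.9 FPKM with Ang II and at 11.1 and 9.27 FPKM with IL-33 (log2 fold change 1.29, SE 1.20). Eef1g stood at 39.6 and 106.01 FPKM with Ang II and at 23.9 and 22.9 FPKM with IL-33 (log2 fold change 1.43, SE 0.94), and 64.3% of its 50-base stretches occur elsewhere, 58.4% in the gene model Gm4366. Both were higher in both Ang II libraries, which differed from each other by more than 2-fold. Eef1d was lower in both, at 15.6 and 11.6 FPKM against 17.9 and 18.3 FPKM. Eef1e1, a gene of the multisynthetase complex, was listed at 0 in Ang II library 1 and stood at 5.92 FPKM in Ang II library 2, against 6.11 and 5.79 FPKM with IL-33. The group summed to 684 and 640 FPKM with Ang II and to 439 and 429 FPKM with IL-33.

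Eef2, the gene of the translocase, was lower in both, at 76.3 and 44.4 FPKM with Ang II and 108 and 110 FPKM with IL-33 (log2 fold change -0.89, SE 0.55, limma adjusted p = 0.775). Both Ang II values lay below IL-33. Eef2k, the kinase gene that switches eEF2 off, was at or below 0.02 FPKM in every library.

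Enzymes that methylate the elongation factors differed more between the Ang II libraries than any other functional group of members. Their median absolute difference was 3.63 in log2(FPKM + 1) over the 4 tested, against 1.22 over all genes tested. The group of 4E-binding proteins and transporter followed with 3.29 over the 3 tested. Eef1akmt4 stood at 77.2 and 0.05 FPKM with Ang II and at 0 and 0.05 FPKM with IL-33. On the same strand, 41.3% of the 50-base stretches of Eef1akmt4 occur in the gene model Gm49333, listed at 0 in every library, so its level is uncertain. Eef1akmt4 also shares exon bases on the opposite strand with Alg3. Alg3 stood at 38.5 and 14.7 FPKM with Ang II and at 14.8 and 16.1 FPKM with IL-33. Eef2kmt stood at 0.04 and 41.4 FPKM with Ang II and at 0.09 and 0.03 FPKM with IL-33. Each was therefore above 1 FPKM in a single library, a different one for each gene. Eef1akmt1 overlapped (88.0 and 22.6 FPKM, against 65.5 and 61.8 FPKM). Eef1akmt2 was lower in both, at 25.9 and 12.8 FPKM against 47.8 and 48.3 FPKM, with a log2 fold change of -1.35 (SE 0.72).

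Such splits were counted over the members. In 9 of the 57 tested members (15.8%) 1 Ang II library was below 1 FPKM while the other had at least 5 FPKM, against 2537 of 9215 genes tested (27.5%). Within the IL-33 pair this held for 0 members and for 16 of all genes tested. The 9 were Eef1akmt4, Eef1e1, Eef2kmt, Eif2a, Eif2s3x, Eif2s3y, Eif4e3, Eif4ebp2 and Eif4enif1.

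The members lie on 20 chromosomes, and 3 neighbours on chromosome 16 differed in pattern. Eif2b5 (20498817 to 20509323), Eef1akmt4 (20611593 to 20619011) and Eif4g1 (20668313 to 20692884) stand in this order with gaps of 102 kb and 49.3 kb. Eif2b5 overlapped between groups, Eef1akmt4 had a level above 1 FPKM in Ang II library 1 alone, and Eif4g1 was lower in both Ang II libraries. Members lower in both Ang II libraries had a median longest transcript of 3383 bases and those higher in both of 2450.5 bases. Over all genes tested these medians were 2606 and 2666 bases. Across the 57 members the log2 fold change and the transcript length had a Spearman's rho of -0.22, a description over genes that share their libraries.

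Many transcripts of the translation machinery are known to begin with a run of pyrimidines, the 5' TOP motif through which mTORC1 controls their translation. RefSeq start windows were found for 51 of the 68 members, and in 4 of them (7.84%) the 5 bases from the annotated start were all C or T, against 5.28% of 27025 genes with a window. Besides the 3 shown, the other was the noncoding Eif2c5. The windows run from 10 bases before the annotated start to 20 from it (RefSeq, GRCm38.p6), with the pyrimidine run in capitals, at chr9:78481705-78481734 (minus strand), chrX:94212632-94212661 (minus strand) and chr7:108934405-108934434 (plus strand).
Eef1a1: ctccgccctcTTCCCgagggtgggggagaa
Eif2s3x: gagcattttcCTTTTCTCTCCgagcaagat
Eif3f: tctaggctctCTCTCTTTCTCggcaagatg
Of these 3 genes Eef1a1 was higher and Eif3f lower in both Ang II libraries, while Eif2s3x overlapped. A match describes these letters in this window and is not a functional site. Runs that begin with T, as in Eef1a1, were counted too. Only bases from the annotated start were read, so a run at another start would be missed. The share therefore does not tell how many members carry a 5' TOP motif.

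Other genes of the pathway were taken from lists chosen by function, and none of their genes passed an adjusted p of 0.05 (limma). Each count of genes higher or lower in both stands beside a background of 24.4% higher and 33.5% lower over all genes tested, and with 3 to 20 genes tested in all but the ribosomal list no list was tested against it. Of the 4 eIF2 kinase genes, 3 were tested, of which 1 was higher and 1 lower in both. Eif2ak2, the gene of the double-stranded RNA sensor PKR, stood at 1.06 and 10.1 FPKM with Ang II and at 24.2 and 25.1 FPKM with IL-33. Of 14 gene models in the integrated stress response list, 10 were tested, 3 (30.0%) being higher and 3 (30.0%) lower in both (median log2 fold change 0.45). Ppp1r15a, which encodes a regulatory subunit of the phosphatase that acts on eIF2 alpha, stood at 256 and 212 FPKM with Ang II. With IL-33 it stood at 128 and 130 FPKM. Atf4, the central transcription factor gene of this response, named after its values were seen, stood at 115 and 79.1 FPKM with Ang II and at 67.6 and 71.6 FPKM with IL-33. Asns, the asparagine synthetase gene, stood at 185 and 125 FPKM with Ang II and at 75.0 and 71.9 FPKM with IL-33. Nupr1, Trib3 and the tested Ddit3 model, named after their values were seen, overlapped between groups. Cebpb, a transcription factor gene, differed most between the Ang II libraries, at 283 and 2.19 FPKM against 23.4 and 26.9 FPKM with IL-33. Ppp1r15b, the constitutive relative of Ppp1r15a, was lower in both, at 0.04 and 10.98 FPKM against 22.5 FPKM in each IL-33 library. Slc7a11, the gene of the cystine transporter, was also lower in both, at 0.05 and 0.33 FPKM against 5.06 and 5.4 FPKM. Slc7a11 passed the filter through its IL-33 values alone, and its Ang II values lie near the floor (log2 fold change -2.40). Atf3, the remaining gene lower in both and likewise named after its values were seen, encodes a transcription factor and stood at 51.1 and 79.8 FPKM against 83.95 and 84.6 FPKM.

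In the list of mTORC1 and MNK control, 8 of 14 genes were tested, with 1 (12.5%) higher and 3 (37.5%) lower in both (median -0.08). Rheb, the gene of the GTPase that switches mTORC1 on, stood at 24.3 and 65.1 FPKM with Ang II and at 39.5 and 40.5 FPKM with IL-33, which overlaps. Mtor itself, looked up after the values were seen, was at or below 0.01 FPKM in every library. Mknk1, the gene of a kinase that phosphorylates eIF4E, stood at 0.06 and 0.03 FPKM with Ang II and at 3.69 and 3.92 FPKM with IL-33. Mknk2, its paralog, stood at 29.5 and 1.61 FPKM with Ang II and at 0.76 and 1.13 FPKM with IL-33. Of 7 termination and recycling genes, 6 were tested, 0 higher and 3 (50%) lower (median -0.66). Etf1, the gene of the release factor, stood at 58.1 and 57.3 FPKM with Ang II and at 84.8 and 85.4 FPKM with IL-33. Of 10 poly(A)-binding and scanning partners, 7 were tested, 4 (57.1%) higher and 2 (28.6%) lower (median 0.83). Paip2, whose product displaces the poly(A)-binding protein, stood at 67.8 and 71.8 FPKM with Ang II and at 32.7 and 31.8 FPKM with IL-33.

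Of 9 genes of the enzymes that make hypusine on eIF5A and diphthamide on eEF2, 8 were tested, 2 (25.0%) higher and 1 (12.5%) lower (median 1.33). Dhps, which encodes the first hypusine enzyme, stood at 25.8 and 12.7 FPKM with Ang II and at 0 FPKM with IL-33 (unadjusted p = 0.0484, limma adjusted p = 0.364). Dhps passed the filter through its Ang II values alone, and its IL-33 values lie at the floor. Among all genes tested, 27.5% were below 1 FPKM in 1 Ang II library and had at least 5 FPKM in the other. With IL-33 counted as 1 sample, this p for Dhps cannot tell a difference from a transcript missed in that sample. Eif5a itself overlapped. Dnajc24, which encodes a helper of diphthamide synthesis, was listed at 0 in Ang II library 1 and stood at 15.4 FPKM in Ang II library 2, against 42.8 and 41.7 FPKM with IL-33. Genes listed at 0 in a group enter these medians by their fitted values. Of 9 mitochondrial translation factor genes, 6 were tested, 1 (16.7%) higher and 2 (33.3%) lower (median -0.67). Tufm, the mitochondrial counterpart of eEF1A, stood at 40.8 and 51.9 FPKM with Ang II and at 22.8 and 22.6 FPKM with IL-33. Mtif2, the mitochondrial initiation factor gene, stood at 0.04 and 0 FPKM with Ang II and at 30.2 and 31.8 FPKM with IL-33. Of 21 aminoacyl-tRNA synthetase and scaffold genes, 20 were tested, 5 (25.0%) higher and 5 (25.0%) lower (median -0.11). Of 82 gene models named as cytosolic ribosomal proteins, 81 were tested, 26 (32.1%) of them higher and 23 (28.4%) lower in both, and their median log2 fold change was 0.04. They summed to 16249 and 13063 FPKM with Ang II and to 14003 and 13660 FPKM with IL-33, and the difference between them and the translation factors was not tested.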

How the data were processed

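RNA-seq was made from 500 ILC2s per sample with a SMARTer low-input kit, PCR amplification and paired-end sequencing, per the labels' protocols; the labels name no molecular identifiers, so PCR copies may stay in the values, and transcripts can drop out of single libraries. The authors deposited FPKM per gene with 2 decimals, per the file headers. The submitters' processing notes name mm10, HISAT, StringTie and edgeR without versions; their annotation and strand setting are not given in these sources. Columns were matched to samples by name, with both Ang II columns in the same table.

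FPKM are not counts, so no count model was used and depth is unknown. Genes averaging 1 FPKM or more over 3 columns (2 Ang II libraries and the mean of the IL-33 libraries) were tested on log2(FPKM + 1) with limma 3.58.1 in R 4.3.3 (lmFit, eBayes with a trend, two-sided, Benjamini-Hochberg over 9215 genes, threshold 0.05), with 1 residual degree of freedom; this assumes that the single IL-33 sample varies like the Ang II libraries. Fold changes on this scale understate the change of low genes. "Higher" or "lower in both" means that both Ang II values lie outside both IL-33 values. The code was checked on simulated data; with so few degrees of freedom a count of 0 called genes does not show that no gene differed. Names ending in -ps with a number were left out as pseudogenes too.

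All 68 members were found in GENCODE M21 (GRCm38, the assembly of mm10), from which coordinates, exon overlaps and shared 50-base stretches of annotated transcripts come; start windows come from RefSeq (GRCm38.p6). Values are given for the 12 most abundant members, the 8 largest differences in each direction without overlap, and paralogs. They are also given for members at 20 FPKM or more in one group and under 1 in the other. Values of further members, such as Eif2s1, Eif3c and Eif3f, are given by role, outside this rule. From each list, genes were named among the 3 most abundant and the 2 with the largest difference, except where stated. Members, lists and tests were chosen with earlier results of these data known. Alternatives changed the pseudocount, filter, scaling, trend, libraries used and replicate block.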

Additional observations from a re-analysis of the deposited data

How the results depend on the processing

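When the IL-33 libraries counted as 2 replicates, limma called 1665 genes (486 higher, 1179 lower). Among them were 5 members, Eif1 higher and Eif2d, Eif2b3, Eif4e and Eif4g1 lower. Since the IL-33 libraries differ by less than the estimated counting noise, these counts overstate the evidence. With the replicate number as a block, 0 genes and 0 members were called at the adjusted threshold and the median of the members stayed at -0.24. The labels name no source that same-numbered libraries share. The data cannot tell, since the IL-33 libraries differ by less than the estimated counting noise. Every other tested setting called 0 genes too, with 515 to 2693 genes at an unadjusted p under 0.05.

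Leaving out 1 library at a time gave 15 to 27 members higher and 22 to 33 lower. The medians ran from -0.41 (without Ang II library 1) to -0.001 (without Ang II library 2). Without an Ang II library there is no test, and any single Ang II value outside the IL-33 pair then counts as higher or lower. The shares over all genes were not computed for these counts, nor for those after rescaling. Rescaling to equal sums moved the median of all genes to 0.16, against -0.004 as deposited, with 10845 genes then tested, and gave 17 members higher and 20 lower with a median of -0.17. Without Ang II library 1, 54 members still passed the filter, and without Ang II library 2, 55 did. Eif4e3 and Eef2kmt fell below it without Ang II library 2. Their differences in Ang II library 1 were -0.958 and -0.027, against main log2 fold changes of 0.432 and 2.647. Among members still passing, the log2 fold change of 15 turned its sign without one or the other Ang II library. These include Eif1b, Eif2a, Eif2b1, Eif2b2, Eif2b5, Eif2s3x and Eif4enif1. Under the other settings the sign of the log2 fold change turned for 4 members. These were Eif4a2 (-0.052 with median-ratio scaling, and -0.369 to 0.384 leaving out 1 library, with -0.004 without IL-33 library 1) and Eif4e3 (-0.26 with a pseudocount of 0.1). The others were Eif4g3 (-0.788 to 0.489 leaving out 1 library, with 0.014 without IL-33 library 2) and Eif5a (0.019 with equal sums). With 1 independent IL-33 sample and 2 Ang II libraries that differ widely, neither moderate nor large differences of single genes could be called here.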
